A study of Mus musculus with 7 samples.

Results

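The genes that govern entry into the cell cycle from G1 were read in mouse embryonic fibroblasts (MEFs) under 6 environmental stresses. They are the 3 D-type cyclins Ccnd1, Ccnd2 and Ccnd3, the 2 E-type cyclins Ccne1 and Ccne2, the transcription factor gene Myc, and 4 genes for inhibitors of cyclin-dependent kinases (CDKs), namely Cdkn1b, Cdkn2a, Cdkn2b and Cdkn2c. They were taken by gene symbol, which gave 10 of the 49382 genes of the expression table, each on a single row. The fibroblasts were wild type, came from E13.5-E14.4 embryos without the head and red tissue, and were used at passages 3 to 7. There were 7 RNA-seq libraries, 1 from control cells and 1 each from cells without glucose, without glutamine, or in a chamber at 0.1% oxygen (hypoxia), all for 10 hours, with 1 μM thapsigargin for 10 hours (ER stress), with 10 μM sodium arsenite for 3 hours (oxidative stress), or with 100 mM added NaCl for 3 hours (osmotic stress). Thapsigargin blocks the calcium pump of the ER and arsenite reacts with protein thiols. No condition was repeated, the labels do not say when the control was collected, and all 6 comparisons share that 1 control library, so no error, test or p-value can be given and a difference is only one between 2 libraries.

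D-type cyclins are made in response to growth factors, bind CDK4 and CDK6, and begin the phosphorylation of the retinoblastoma protein, which frees E2F transcription factors. Cyclin E then drives CDK2 into S phase. Myc, a factor induced by mitogens, promotes ribosome production and growth as well as this transition. The INK4 proteins from Cdkn2a, Cdkn2b and Cdkn2c hold CDK4 and CDK6 away from D-type cyclins, whereas the product of Cdkn1b (p27 or KIP1) blocks cyclin E with CDK2. Cdkn2a also encodes the ARF protein in another reading frame, which stabilises p53, and its products build up as MEFs are passaged.

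Levels are given in TPM (transcripts per 1000000), a share of each library that is corrected for transcript length and can therefore be compared between genes. A change is the difference of log2(TPM + 1) from the control, and it was counted when it passed 2-fold. All 10 genes were above the mean of 2 TPM over the 7 libraries that defined the 12909 genes kept as background. Genes known to respond to each treatment had a log2 change of -2.07 for Txnip without glucose and 4.85 for Bnip3 in hypoxia, with Hspa5 at 3.44 in ER stress, Hmox1 at 4.50 in oxidative stress, Akr1b3 at 2.66 in osmotic stress and Chac1 at 1.69 without glutamine. Some of them also changed elsewhere, with Txnip lower still in osmotic stress (-3.12) and Hmox1 at 2.75 in ER stress. All 9 fibroblast markers were above 2 TPM in every library. Their sum lay between 10269 and 12813 TPM in 6 libraries and was 6166 TPM in ER stress. The sums of 8 macrophage, 5 endothelial and 5 epithelial markers stayed between 4.04 and 16.1 TPM, with at most 3 macrophage markers and 1 of each other list at 2 TPM or more. In bulk RNA, fewer cells of a kind and less of an RNA per cell cannot be told apart.

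On GRCm38, Cdkn2a (chromosome 4, 89274471 to 89294653) and Cdkn2b (chromosome 4, 89306299 to 89311039) are neighbours on the minus strand with 11645 bases between them, and Cdkn2c lies on the same chromosome at 109660876 to 109667189. Ccne2 is on chromosome 4 from 11191351 to 11204779, Ccne1 on chromosome 7 from 38097984 to 38107534, and Ccnd1 on chromosome 7 from 144929931 to 144939925. Ccnd2 (127125162 to 127152193) and Cdkn1b (134920401 to 134925513) are on chromosome 6, Ccnd3 on chromosome 17 from 47505051 to 47599691, and Myc on chromosome 15 from 61985391 to 61990374. Some exons overlap genes of the opposite strand, and Kallisto at default settings does not use strand, so reads from these stretches cannot be assigned with certainty. Ccnd3 shares 361 bases with Bysl (10.8 to 23.7 TPM), Ccne2 shares 474 bases with Ints8 (30.8 to 39.1 TPM), Ccnd1 shares 818 bases with LTO1 (14.3 to 25.1 TPM), and Ccnd2 shares 374 bases with the noncoding Gm43126 (0 to 11.4 TPM) and also overlaps exons of 9330179D12Rik. The pseudogene Ccnd3-ps, 96.3% identical to Ccnd3 over 881 bases, is listed at 0 in all 7 libraries. Transcripts of Cdkn2a start at 2 promoters, 1 for each protein, but the summed TPM does not separate them.

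RefSeq promoter sequence on GRCm38.p6 was at hand for 6 of the 10 genes and is shown for 4 (for Ccnd3 at the start of the gene), cut at the first annotated exon base and written 5′ to 3′ on the strand of the gene. Ccnd3 (chr17:47504801-47505050, plus strand) and Ccne1 (chr7:38107535-38107740, minus strand) are the cyclins that passed 2-fold in ER stress, Cdkn1b (chr6:134920151-134920400, plus strand) had its highest level in hypoxia, and Cdkn2b (chr4:89311040-89311282, minus strand) lies beside Cdkn2a and had a change of -0.77 in ER stress, within 2-fold. Capitals mark matches on either strand to the CRE half-site TGACG, the CCAAT box CCAAT, the GC box GGGCGG and the FOXO site GTAAACA. The E-box CACGTG, to which MYC with MAX binds, was also searched.
Ccnd3: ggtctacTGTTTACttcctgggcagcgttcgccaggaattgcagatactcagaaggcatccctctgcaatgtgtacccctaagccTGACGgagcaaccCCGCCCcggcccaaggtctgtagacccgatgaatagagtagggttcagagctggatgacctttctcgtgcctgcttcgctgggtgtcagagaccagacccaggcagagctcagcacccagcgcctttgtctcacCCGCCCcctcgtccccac
Ccne1: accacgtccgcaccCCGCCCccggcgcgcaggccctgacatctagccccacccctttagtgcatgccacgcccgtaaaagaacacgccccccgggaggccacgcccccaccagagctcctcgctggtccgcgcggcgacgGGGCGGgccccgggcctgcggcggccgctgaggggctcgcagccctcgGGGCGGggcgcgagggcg
Cdkn1b: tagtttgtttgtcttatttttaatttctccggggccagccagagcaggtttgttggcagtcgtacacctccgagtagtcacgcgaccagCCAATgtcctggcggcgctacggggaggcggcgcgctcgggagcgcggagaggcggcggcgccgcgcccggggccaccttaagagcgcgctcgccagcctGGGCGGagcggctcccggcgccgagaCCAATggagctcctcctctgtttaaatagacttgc
Cdkn2b: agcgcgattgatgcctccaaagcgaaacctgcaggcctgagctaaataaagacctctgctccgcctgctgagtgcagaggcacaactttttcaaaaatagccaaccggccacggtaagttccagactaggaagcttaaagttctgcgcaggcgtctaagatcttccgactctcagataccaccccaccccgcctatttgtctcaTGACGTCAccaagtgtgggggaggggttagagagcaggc
The Ccnd3 window shown held 1 CRE half-site, 2 GC boxes and 1 FOXO site. A second RefSeq window of Ccnd3 (chr17:47593217-47593435, plus strand), not shown, held 1 CCAAT box and 1 GC box, without a CRE half-site or FOXO site. Ccne1 held 3 GC boxes, Cdkn1b held 2 CCAAT boxes and 1 GC box, and the 2 CRE half-site matches of Cdkn2b are overlapping readings of 1 palindrome on both strands. None of the 4 windows shown contained the E-box letters. The genes not shown were Cdkn2a and Cdkn2c. Cdkn2a had 1 GC box at chr4:89294654-89294869 (minus strand) and no match at chr4:89282193-89282442 (minus strand). The windows of Cdkn2c began within an annotated exon, which left no sequence to search. Of 32851 RefSeq windows of 250 bases, 17.8% had a CRE half-site, 33.8% a CCAAT box, 32.7% a GC box, 6.02% an E-box and 3.17% a FOXO site. Over the shorter windows, 25.8% of promoters had a GC box within 206 bases and 17.2% a CRE half-site within 243 bases. A match is a run of letters and not a measured binding site.

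Myc was the member with the widest range. Its level was 56.8 TPM in the control, 68.0 without glucose, 144 without glutamine, 51.3 in hypoxia, 265 in ER stress, 106 in oxidative stress and 95.4 in osmotic stress. It was thus highest in ER stress, with glutamine depletion next, while hypoxia and glucose depletion lay closest to the control. Against the control it rose by 2.20 on the log2 scale in ER stress and by 1.33 without glutamine, the only increases past 2-fold among the 10 genes. Against the median of the 7 libraries in place of the control, the change without glutamine was 0.59, within 2-fold. In these libraries 8.6% and 3.21% of the background genes rose by as much as 2-fold. The changes of 0.89 in oxidative and 0.74 in osmotic stress, both at 3 hours, stayed below that line. Since the median gene stood at -0.16 in oxidative stress and -0.12 in osmotic stress, the change of Myc relative to it was 1.04 in oxidative stress, past 2-fold. Myc stood seventh among the 10 genes in the control, at rank 3 without glutamine and first in ER stress, ahead of Ccnd2.

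**Figure D1:**
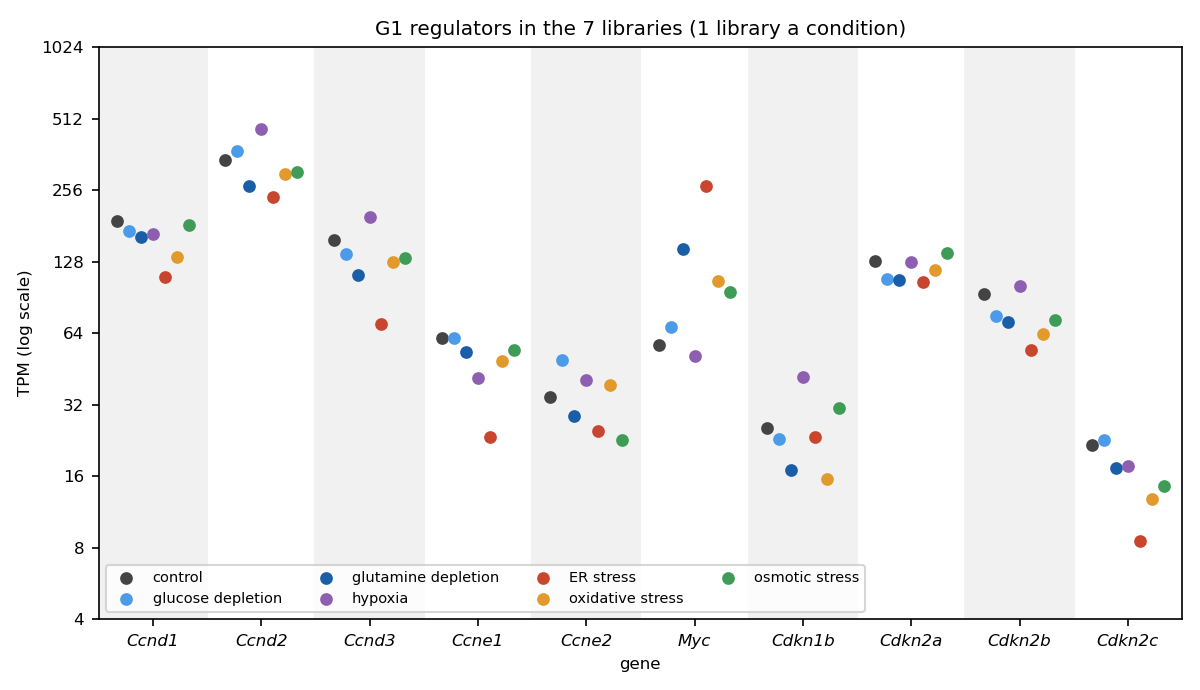
Level of each gene in TPM (log axis) in the 7 libraries, 1 point a library, coloured by condition. Ccnd2 is the highest point group except in ER stress, where Myc reaches 265 TPM. Ccnd1, Ccnd2, Ccnd3, Ccne1, Cdkn2a, Cdkn2b and Cdkn2c have their lowest points in ER stress.

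Among the D-type cyclins, Ccnd2 was the most abundant in every library. It was at 341 TPM in the control, 373 without glucose, 267 without glutamine, 463 in hypoxia, 239 in ER stress, 299 in oxidative stress and 304 in osmotic stress. Hypoxia gave the highest value and ER stress the lowest, and no change passed 2-fold (log2 changes from -0.51 to 0.44). Ccnd1, the cyclin most closely tied to mitogen signalling, was at 189.8 TPM in the control and lower elsewhere, with 173 TPM without glucose, 162 without glutamine, 168 in hypoxia, 110.3 in ER stress, 134 in oxidative stress and 182 in osmotic stress. Its largest differences were those of ER stress (-0.78) and oxidative stress (-0.50), both within 2-fold, and the small one in osmotic stress (-0.06) turned positive after centring on the median gene. Ccnd3 was at 157 TPM in the control, 138 without glucose, 112 without glutamine, 197 in hypoxia, 70.1 in ER stress, 127 in oxidative stress and 132 in osmotic stress. It fell by 1.16 on the log2 scale in ER stress, where 11% of the background genes fell past 2-fold, and was highest in hypoxia (0.32), as was Ccnd2.

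Summed over the 3 genes, D-type cyclin RNA was 688 TPM in the control. The sum was nearly the same without glucose (684 TPM), higher in hypoxia (827 TPM), and lower without glutamine (541 TPM), in ER stress (419 TPM), in oxidative stress (559 TPM) and in osmotic stress (618 TPM). The make-up of the sum moved less than its size. Ccnd2 gave between 49.14% and 56.97% of it, while Ccnd1 ranged from 20.3% in hypoxia to 29.9% without glutamine, and Ccnd3 from 16.7% in ER stress to 23.8% in hypoxia. The ratio of Ccnd2 to Ccnd1 was 1.80 in the control and 2.76 in hypoxia, its highest value.

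**Figure D2:**
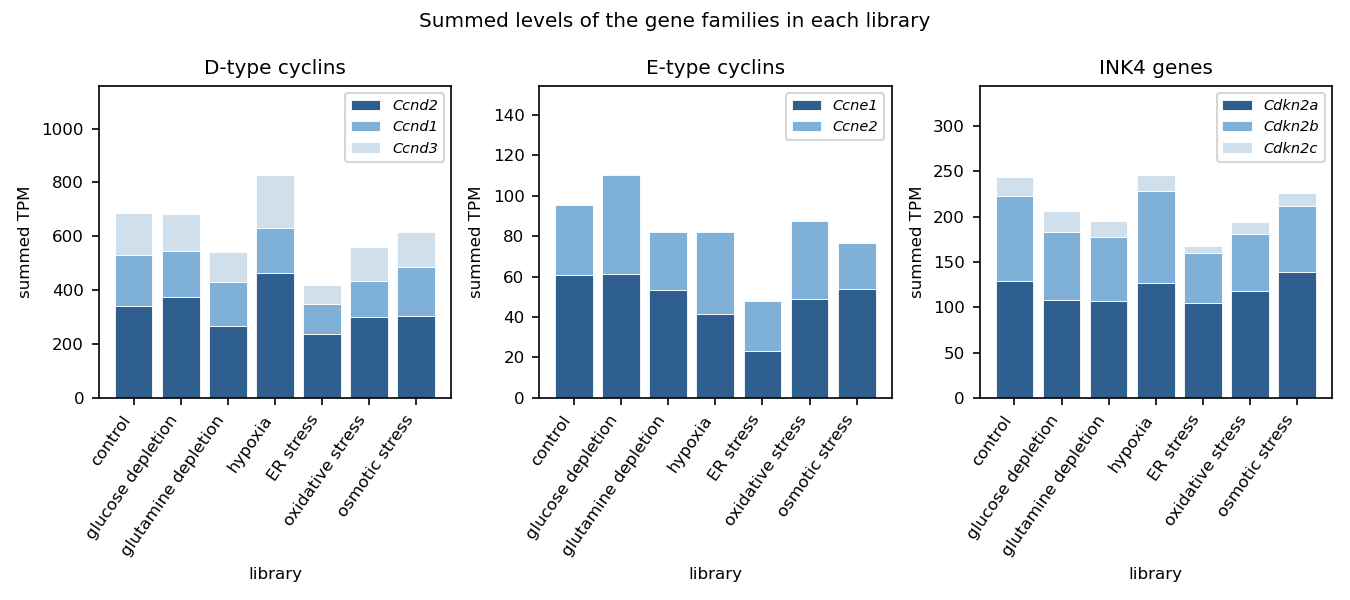
Summed TPM of the D-type cyclins, the E-type cyclins and the INK4 genes in each of the 7 libraries, with the part of each gene stacked (linear axes from 0, a scale for each panel). All 3 sums are lowest in ER stress, at 419, 48.1 and 168 TPM, and the D-type sum is highest in hypoxia at 827 TPM.

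The E-type cyclins did not move alike. Ccne1 was at 60.9 TPM in the control, 61.1 without glucose, 53.4 without glutamine, 41.5 in hypoxia, 23.3 in ER stress, 49.04 in oxidative stress and 54.1 in osmotic stress. Its log2 change of -1.351 in ER stress was the largest decrease of any member, and 10.8% of the background genes had a larger change of either sign there. Ccne2 was at 34.4 TPM in the control, 49.2 without glucose, 28.8 without glutamine, 40.7 in hypoxia, 24.9 in ER stress, 38.7 in oxidative stress and 22.7 in osmotic stress, with no change past 2-fold. Its highest level was found without glucose (0.50) and its lowest in osmotic stress (-0.58). In hypoxia Ccne1 had a change of -0.54 and Ccne2 one of 0.24, and the ratio of Ccne1 to Ccne2, 1.77 in the control, was 1.02 in hypoxia, 0.937 in ER stress and 2.38 in osmotic stress. The overlap of Ccne2 with Ints8, which was of similar abundance, may affect these ratios, and its effect was not measured.

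Cdkn1b, the gene for p27, had its own order of conditions. Its level was 25.4 TPM in the control, 22.9 without glucose, 17.0 without glutamine, 42.0 in hypoxia, 23.3 in ER stress, 15.5 in oxidative stress and 31.0 in osmotic stress. Hypoxia was highest (log2 change 0.71) and oxidative stress lowest (-0.68), neither of them past 2-fold, although the 2 libraries differ from each other by 2.71-fold in TPM. In ER stress, where 3 other members fell past 2-fold, its change was -0.12. D-type cyclin RNA was 27.1 times that of Cdkn1b in the control, 19.7 times in hypoxia, 18.0 times in ER stress and 36.0 times in oxidative stress.

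Of the INK4 genes, Cdkn2a was the steadiest of all 10 members. It was at 129 TPM in the control, 108 without glucose, 107 without glutamine, 127 in hypoxia, 105 in ER stress, 118 in oxidative stress and 139 in osmotic stress, a range of 1.32-fold. Its neighbour Cdkn2b was at 93.6 TPM in the control, 75.1 without glucose, 71.1 without glutamine, 101 in hypoxia, 54.3 in ER stress, 63.2 in oxidative stress and 72.5 in osmotic stress. The largest change of Cdkn2b was -0.77 in ER stress, within 2-fold, and Cdkn2a had -0.29 in the same library, so that the ratio of Cdkn2a to Cdkn2b was 1.38 in the control and 1.94 in ER stress. Cdkn2c, which encodes the INK4 protein p18, was the least abundant in all libraries but that of glutamine depletion, at 21.6 TPM in the control, 22.8 without glucose, 17.3 without glutamine, 17.6 in hypoxia, 8.49 in ER stress, 12.8 in oxidative stress and 14.5 in osmotic stress. It fell by 1.25 on the log2 scale in ER stress, and its other changes ran from -0.71 to 0.08. Summed over these 3 genes, which leaves out Cdkn2d and includes the ARF transcripts of Cdkn2a, INK4 RNA was 244 TPM in the control, between 194 and 246 TPM in 5 conditions and 168 TPM in ER stress. The ratio of D-type cyclin to INK4 RNA stayed between 2.50 in ER stress and 3.36 in hypoxia, a narrower span than that of either sum.

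Counted by condition, 4 of the 10 genes passed 2-fold in ER stress, with Myc up and Ccnd3, Ccne1 and Cdkn2c down, against 19.6% of the 12909 background genes in either direction. Without glutamine 1 passed, Myc, against 6.41%. None passed without glucose (background 4.24%, with 1.83% up and 2.41% down), in hypoxia (6.21%), in oxidative stress (8.78%) or in osmotic stress (11.8%). Among the 11300 protein-coding background genes, a set added after seeing the data, the shares were lower, at 1.04% without glucose, 3.75% without glutamine, 2.95% in hypoxia, 16.9% in ER stress, 5.25% in oxidative stress and 8.75% in osmotic stress. Nothing particular to these 10 genes can be read from such counts. Over all 60 values 55 stayed within 2-fold. Nearest the line on the inside were Myc in oxidative stress (0.89) and Ccnd1 in ER stress (-0.78), and nearest on the outside was Ccnd3 in ER stress (-1.16). Among all background genes the median change lay between -0.16 and 0. The median change of the 10 genes was -0.64 in ER stress, -0.29 without glutamine and -0.31 in oxidative stress, and lay between -0.17 and 0.04 in the other 3 conditions. In ER stress and without glutamine, 9 of the 10 genes were below the control and Myc alone was above it. Hypoxia and glucose depletion each had 5 above and 5 below, although Cdkn2a in hypoxia (-0.02) turned positive after centring. Of the background genes, 48.5% were below the control in ER stress and 60.0% without glutamine, with 55.5% in hypoxia and 53.7% without glucose. In the ER stress library the fibroblast markers also had a median change of -0.86, with all 9 below the control and 3 past 2-fold (Lum -2.33, Col3a1 -2.07 and Pdgfrb -1.15), and their part in the result was not tested. With the genes that changed past 8-fold in ER stress left out of the total, a setting added after seeing the data, the same 4 members passed. Against the median of the 7 libraries, 2 passed in ER stress, Myc and Ccne1, with Ccnd3 at -0.91 and Cdkn2c at -0.95, and with a pseudocount of 5 TPM Cdkn2c stood at -0.98.

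**Figure D3:**
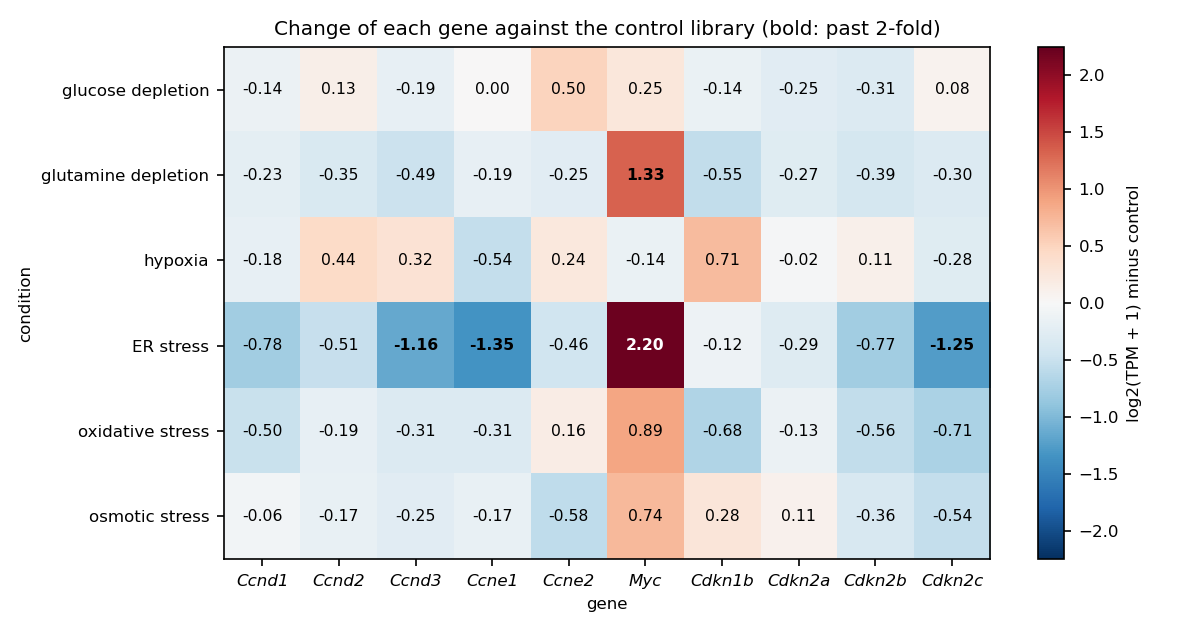
Difference of log2(TPM + 1) from the control for each gene (columns) in each condition (rows), with the value in each cell and bold type past 2-fold. The 5 bold cells are Myc without glutamine and Myc, Ccnd3, Ccne1 and Cdkn2c in ER stress.

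Of 10 genes for the kinases and pocket proteins of G1, their activating kinase complex (with Ccnh and Mnat1) and the phosphatase Cdc25a, 0 passed 2-fold in any condition. Taken condition by condition, between 4.24% and 19.6% of the background genes did. The share of background genes past 2-fold in any of the 6 conditions was not counted. Cdk4 was between 585 and 764 TPM, against 5.56 to 11.5 TPM for Cdk6. Among the other CDK inhibitors, Cdkn1a (p21) stayed within 333 to 482 TPM, while Cdkn2d, the remaining INK4 gene, fell past 2-fold without glutamine (-1.37), in ER stress (-1.31) and in oxidative stress (-1.16), from 17.4 TPM in the control to between 6.12 and 7.27 TPM. In oxidative stress 4.85% of the background genes fell past 2-fold, and 3.21% did without glutamine. Cdkn1c (p57) fell by 1.07 in ER stress. Of 9 E2F and DP genes, E2f8, a repressive member, fell by 1.54 in ER stress, from 10.4 to 2.92 TPM, where 11% of the background genes fell past 2-fold. The other 8 E2F and DP genes stayed within 2-fold everywhere.

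Genes that E2F factors switch on for S phase were read as a downstream list of 15. In ER stress 5 of them fell past 2-fold, against 11% of the background genes, and the list had a median change of -0.78. Tk1 (thymidine kinase) went from 56.6 to 11.0 TPM, a log2 change of -2.26, Rrm1 (ribonucleotide reductase) changed by -1.34 and Ccna2 (cyclin A) by -1.19, with Mcm5 and Mcm6 of the replicative helicase just past the line at -1.002 and -1.01. Cdc6, which loads that helicase, had a change of 0.95. In hypoxia none passed 2-fold but all 15 were below the control, with a median of -0.52. In oxidative stress and without glutamine 14 of 15 were below it, with medians of -0.47 and -0.39, and 12 of 15 were in osmotic stress, with a median of -0.19. By contrast, 13 of 15 were above the control without glucose, where the median was 0.04. Of the background genes, 55.5% were below the control in hypoxia, 66.0% in oxidative stress and 60.0% without glutamine. The share was 61.6% in osmotic stress, where the median of all genes was -0.12, and 53.7% without glucose. Mitosis genes had 7 of 10 down past 2-fold in ER stress (background 11%), with Ccnb1 at -1.34 and Ccnb2 at -1.32, both B-type cyclins. In oxidative stress 3 fell (background 4.85%), led by the kinase gene Plk1 at -1.57, and in osmotic stress 2 did, Aurka and Aurkb, where 8.76% of the background genes fell.

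Known targets of MYC, mostly genes for nucleolar proteins and for polyamine and nucleotide synthesis, were read next. In ER stress all 12 were above the control, 5 of them past 2-fold against 8.6% of the background genes, and their median change was 0.95. Srm (spermidine synthase) rose from 199 to 483 TPM, a log2 change of 1.27, Odc1 (ornithine decarboxylase) by 1.22 and Ncl (nucleolin) by 1.21, with Nop58 at 1.14 and Rrp9 at 1.08. Without glutamine, where Myc also rose past 2-fold, the median of the list was 0.08 and 0 of 12 passed, with values from -0.55 for Cad to 0.55 for Odc1. In hypoxia all 12 were below the control, with a median of -0.67, beside 55.5% of the background genes below it. Polr1b, a subunit of RNA polymerase I, fell by 1.19 in hypoxia, where 2.64% of the background genes fell past 2-fold. Myc itself had a change of -0.14 there.

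**Figure D4:**
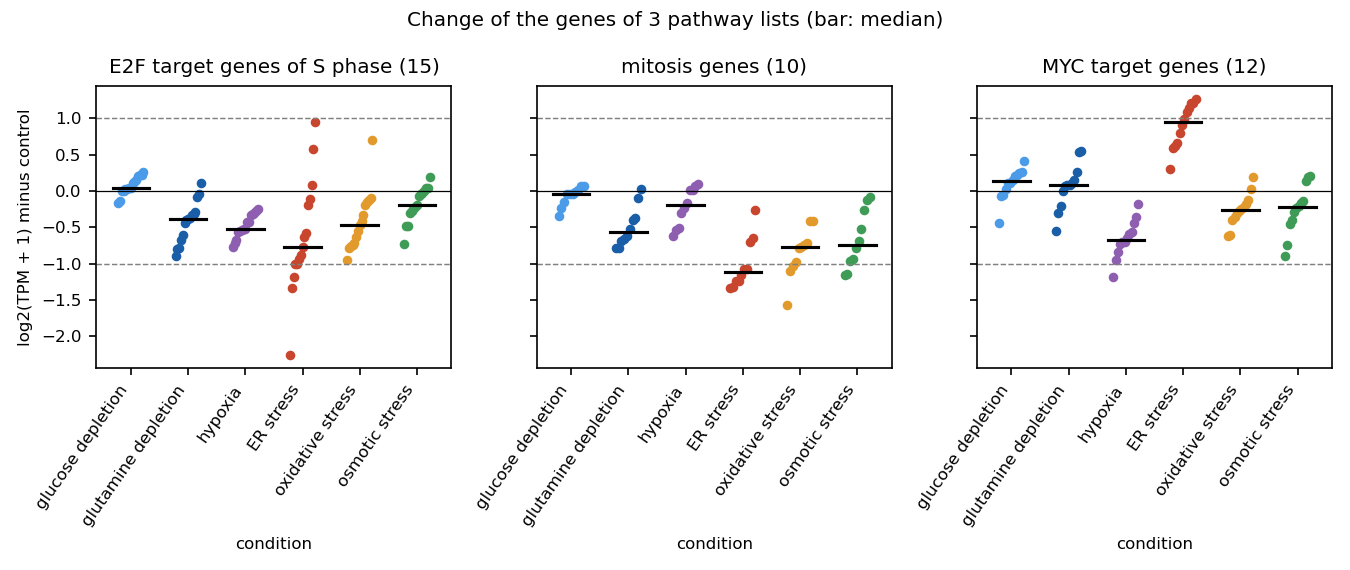
Difference of log2(TPM + 1) from the control for each gene of 3 lists (points) in 6 conditions, with the median as a bar and dashed lines at 2-fold. In ER stress the mitosis genes have a median of -1.12 and the MYC target genes one of 0.95, and in hypoxia all 15 S phase genes and all 12 MYC targets are below 0.

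Other genes of the MAX network had calls in hypoxia, osmotic stress and ER stress. Mxi1, a MAX partner that opposes MYC, rose from 4.64 to 26.99 TPM in hypoxia, a log2 change of 2.31, with 3.57% of the background genes up past 2-fold. In osmotic stress Mnt went from 13.4 to 3.11 TPM (-1.81) and Mga from 26.6 to 10.8 TPM (-1.22), and Mxd3, also of this group, changed by -1.18 there and by -1.10 in ER stress. Of 9 genes for the turnover of G1 regulators, 2 fell past 2-fold in osmotic stress, as did 8.76% of the background genes. In hypoxia 1 of the 9 rose past 2-fold, beside 3.57% of the background genes. In osmotic stress Ambra1, whose product directs D-type cyclins to degradation, fell from 14.1 to 3.70 TPM (-1.69), and Skp2, which does so for p27, from 13.6 to 4.48 TPM (-1.41). Fbxw7, the adaptor for cyclin E and MYC, rose from 10.8 to 24.1 TPM in hypoxia (1.09). Among factors known to act upstream of Ccnd1, Myc or Cdkn1b, Egr1 (1.58), Junb (1.34) and Fosl1 (1.18) rose without glutamine, Fosl1 (1.42) and Egr1 (1.17) in oxidative stress, Junb (1.44) and Fosl1 (1.02) in osmotic stress, and Fosl1 alone (1.20) in ER stress, where Tcf7l2 fell by 1.29. The list of these factors held 11 genes. Of the background genes, 3.21% rose past 2-fold without glutamine, 3.94% in oxidative stress and 3.08% in osmotic stress. In ER stress 8.6% of the background genes rose and 11% fell past 2-fold.

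For the 6 members that ranged over more than 2-fold, the genes with the most similar profile were searched among 3732 genes, by Pearson r of log2(TPM + 1) over the same 7 libraries. Nearest to Myc were Map1b (r = 0.979), a microtubule-associated protein, and Slc7a1 (0.977), a transporter of cationic amino acids, which went from 24.8 TPM in the control to 54.2 without glutamine and 85.6 in ER stress. Ccnd3 was matched by Nfatc4 (0.995) and Cisd3 (0.991), and Ccne1 by Sbsn and Pls3 (both 0.985). Cdkn2c was nearest to Hmgn2 and Ccbe1 (both 0.989), and Cdkn1b to Tmem260 (0.982) and Bphl (0.968). For Ccne2 they were Hmgb2 (0.954), a chromatin protein of dividing cells, and Gm9803 (0.946), which is listed at 0 in osmotic stress. All points of a pair come from the same libraries, and r is a description without a p.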

How the data were processed

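Stranded mRNA libraries were quantified by the authors with kallisto 0.43.1 (default options) on the GRCm38 cDNA set of Ensembl release 90, and the TPM they deposited are sums per gene. TPM keeps no read number, so depth is unknown and no counting interval can be given. A gene also moves when others take more or less of the 1000000 TPM of a library.

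The difference of log2(TPM + 1) from the control was computed here. The pseudocount of 1 TPM understates changes of low genes. Values past 2-fold, which is the limit the study used, were counted beside the 12909 genes averaging 2 TPM or more. No test was run, since each condition is 1 library. Groups came from the treatment labels. Members and gene lists were chosen with earlier results of these data known. By rule the text names the 10 members, up to 3 genes of each list with the largest change past 2-fold, the 2 most similar genes for each member whose range exceeded 2-fold, and 1 treatment gene per condition. Cdk4, Cdk6, Cdkn1a, Ccnh, Mnat1, Cdc25a, Mcm5, Mcm6, Cdc6, Aurka, Aurkb, Nop58, Rrp9, Cad, Polr1b, Mxd3, Tcf7l2, Ddit3, Arrdc4 and the overlapping genes were picked knowing their values. Alternatives were other pseudocounts, thresholds, filters, scalings and references. Locations came from GENCODE M21, shared stretches from blastn 2.17.0, and promoters from RefSeq. The scripts (Python 3.11.15, with pandas 2.3.3, numpy 2.4.6 and matplotlib 3.10.9) were tested on simulated data.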

Additional observations from a re-analysis of the deposited data

Results flagged for a closer look

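Chac1, the gene that marked glutamine depletion, changed past 2-fold in opposite directions between conditions, with log2 changes of 1.69 without glutamine, 3.05 in ER stress and 1.38 in oxidative stress but -2.36 in osmotic stress. Of the other treatment genes, Ddit3 had 3.77 in ER stress and -1.46 in osmotic stress, and Arrdc4 had -1.50 without glucose and 1.94 in ER stress. Each value is 1 library and these differences were not tested. None of the 10 G1 regulators did so.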

How the results depend on the processing

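Scaling and pseudocount moved few calls. With the median of the 7 libraries as the reference in place of the control, 0 members passed 2-fold without glutamine and 2 in ER stress (Myc and Ccne1), with Myc at 0.59 without glutamine and Ccnd3 and Cdkn2c at -0.91 and -0.95 in ER stress. With that reference 17 of the 60 member values changed sign or became 0. A value became 0 where its library was the median, since the median of 7 libraries is the value of 1 of them. Others reversed, such as Myc without glucose, from 0.25 to -0.48. For Myc the control was the second lowest of the 7 libraries. After centring on the median of all genes, 1 member (Myc) passed in oxidative stress. At a 1.5-fold threshold 1 member passed in hypoxia, 3 in oxidative stress, 1 in osmotic stress and 6 in ER stress. At 3-fold 0 passed without glutamine and 1 in ER stress. The share of background genes was not counted at these thresholds, after centring or against the median of the libraries. Nothing particular to the members can therefore be read from these counts. With a pseudocount of 5 TPM the change of Cdkn2c in ER stress was -0.98 and the median of the mitosis genes -0.98. Of the member values, centring changed the sign of 3 and upper quartile scaling that of 2, all of them within 0.13 of 0. No called value changed sign. The share of background genes past 2-fold depended on the gene set: among 11300 protein-coding genes, a set added after seeing the data, it was 1.04% without glucose, 3.75% without glutamine, 2.95% in hypoxia, 16.9% in ER stress, 5.25% in oxidative stress and 8.75% in osmotic stress. No paired analysis was possible because each condition has 1 library and the labels give no replicate numbers.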
